A study of Arabidopsis thaliana with 15 samples.

Results

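The 10 genes described here take jasmonates out of their active form, and were followed in leaf 6 of Arabidopsis thaliana. They are listed by gene ID and make up 10 of the 32833 genes in the expression table. Jasmonic acid (JA) becomes the hormone that the receptor binds only after conjugation to isoleucine, as JA-Ile. Cells remove it again by several routes: cytochrome P450 enzymes of the CYP94 family oxidise the end of the JA-Ile chain, amidohydrolases split off the isoleucine, jasmonate-induced oxygenases (JOX) hydroxylate JA before it is conjugated, and a sulfotransferase caps the hydroxylated product. In leaves these genes are known as part of the feedback that follows jasmonate signaling.

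The members were grouped by these routes. The hydroxylation route held CYP94B1 (AT5G63450), CYP94B3 (AT3G48520) and CYP94C1 (AT2G27690). The amide hydrolysis route held IAR3 (AT1G51760) and ILL6 (AT1G44350). The oxidation route held JOX1 (AT3G11180), JOX2 (AT5G05600), JOX3 (AT3G55970) and JOX4 (AT2G38240), and the sulfation route held ST2A (AT5G07010). In the TAIR10.1 annotation of RefSeq, CYP94B1 lies at chr5:25408821-25410725 on the minus strand, CYP94B3 at chr3:17974853-17976774 (minus), CYP94C1 at chr2:11809279-11811280 (plus), IAR3 at chr1:19199351-19201707 (plus) and ILL6 at chr1:16834210-16838562 (minus). JOX1 lies at chr3:3503917-3507113 (plus), JOX2 at chr5:1672070-1674770 (plus), JOX3 at chr3:20766735-20769410 (minus), JOX4 at chr2:16012535-16014991 (minus) and ST2A at chr5:2174668-2176446 (minus). None of the 10 genes overlapped another annotated gene on either strand.

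The 15 RNA-seq libraries were made from leaf 6 of wild-type Col-0 plants, aged 22 to 24 days, with 3 in each of 5 groups: mock (no small molecule given), GSH and Glu (leaf 6 taken 1 h after 100 mM glutathione or glutamate was put on leaf 1), wounding mock (taken before wounding) and wounding (taken 1 h after leaf 1 was wounded). By the study's methods, small molecules were put on the edge of a leaf 1 that had been cut some hours earlier. The sources used here do not state whether the mock plants were also cut or were given the solvent. The sample codes of both mock groups read as time 0 and those of the treated groups as 1 h, so in all 3 treatments the treated and control leaves may also differ in the hour of sampling, and treatment and hour cannot be told apart. The sources also do not state whether the 3 replicates of a group came from separate plants, so p values measure the spread between libraries, which may be technical. In bulk leaf RNA, more transcript per cell and more cells of an expressing type cannot be told apart.

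Values are FPKM, fragments scaled to transcript length and to the size of the library, which can be compared between genes; the number of fragments behind them is unknown. The 4 mesophyll markers summed to between 18815 and 25976 FPKM per library, and the 6 root hair, seed and flower markers stayed under 1 FPKM, with EXPA7 at 0 in all 15 libraries. Wounding mock replicate 1 stood apart, with 18664 genes above 0 against 21090 to 21750 in the other libraries and only 3 of the 10 members above 0. Wounding results are therefore also given without it where it changed a call or a value.

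Because several members moved together, the 300 bases around each gene start (250 before to 50 after) were searched on both strands for 5 motifs. The G-box CACGTG is known to be bound by MYC factors of the jasmonate pathway, as is its variant AACGTG. The W-box core TTGACN is known to be bound by WRKY factors, and the GCC box GCCGCC by ERF factors. The last motif was the CAMTA-type element CGCGTT. Matches of different motifs cannot begin at the same base. The 200 bases before the gene start are shown for 4 members, the pair of hydroxylases that were nearest to each other in pattern (CYP94B1, CYP94B3) and a pair of oxygenases of which the first stayed near 0 and the second responded (JOX1, JOX3). They are written 5′ to 3′ on the strand of the gene, from TAIR10.1, with motif matches in capitals.
CYP94B1, chr5:25410726-25410925 (minus): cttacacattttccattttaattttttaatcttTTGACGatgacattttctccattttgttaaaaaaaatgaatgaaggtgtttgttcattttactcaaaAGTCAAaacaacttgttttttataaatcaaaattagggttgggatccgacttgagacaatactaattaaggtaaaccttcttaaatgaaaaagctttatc
CYP94B3, chr3:17976775-17976974 (minus): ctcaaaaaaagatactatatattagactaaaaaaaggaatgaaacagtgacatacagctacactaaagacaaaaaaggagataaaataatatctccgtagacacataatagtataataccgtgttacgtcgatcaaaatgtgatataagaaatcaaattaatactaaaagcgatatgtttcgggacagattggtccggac
JOX1, chr3:3503717-3503916 (plus): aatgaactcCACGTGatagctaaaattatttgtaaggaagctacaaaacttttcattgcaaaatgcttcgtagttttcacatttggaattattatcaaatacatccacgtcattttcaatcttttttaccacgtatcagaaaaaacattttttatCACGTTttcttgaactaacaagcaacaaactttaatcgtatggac
JOX3, chr3:20769411-20769610 (minus): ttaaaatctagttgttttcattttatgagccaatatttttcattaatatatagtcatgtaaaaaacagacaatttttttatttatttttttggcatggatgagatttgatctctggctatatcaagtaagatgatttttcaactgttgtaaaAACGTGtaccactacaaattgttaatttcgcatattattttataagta

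CYP94B1 carried TTGACN matches that began 219, 167 and 100 bases before the gene start, of which the last 2 fall in the printed stretch. CYP94B3, the gene closest to it in expression, held none of the 5 motifs in its window. JOX1 carried CACGTG 191 bases before its start and AACGTG, read on the opposite strand, 45 bases before it, and JOX3 carried AACGTG 48 bases before its start. Over all 10 members, CACGTG was found in 1 window (7.68% of 27443 protein-coding windows hold it), AACGTG in 3 (8.95%; JOX1, JOX2, JOX3), TTGACN in 3 (50.4%; CYP94B1, CYP94C1, JOX4), GCCGCC in 0 (2.57%) and CGCGTT in 0 (3.4%). These matches are letters in a window and not measured binding sites.

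Of the 10 members, 9 were present in leaf 6 and ranked wounding, GSH, Glu, mock and wounding mock from the highest to the lowest group mean, except that the CYP94B3 means of the 2 mock groups were both 0. JOX1 was the exception: it was listed at 0 in 13 of 15 libraries, at 0.0274 FPKM in Glu replicate 3 and at 0.119 FPKM in wounding replicate 3, and it was not tested in any comparison. Summed over the 10 genes, the level was 25.7 ± 1.77 FPKM in mock, 102 ± 2.1 in GSH, 76.4 ± 7.36 in Glu, 9.46 ± 2.36 in wounding mock and 1032 ± 39.3 in wounding (mean ± SD, n = 3 each, as for all means below).

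**Figure D1:**
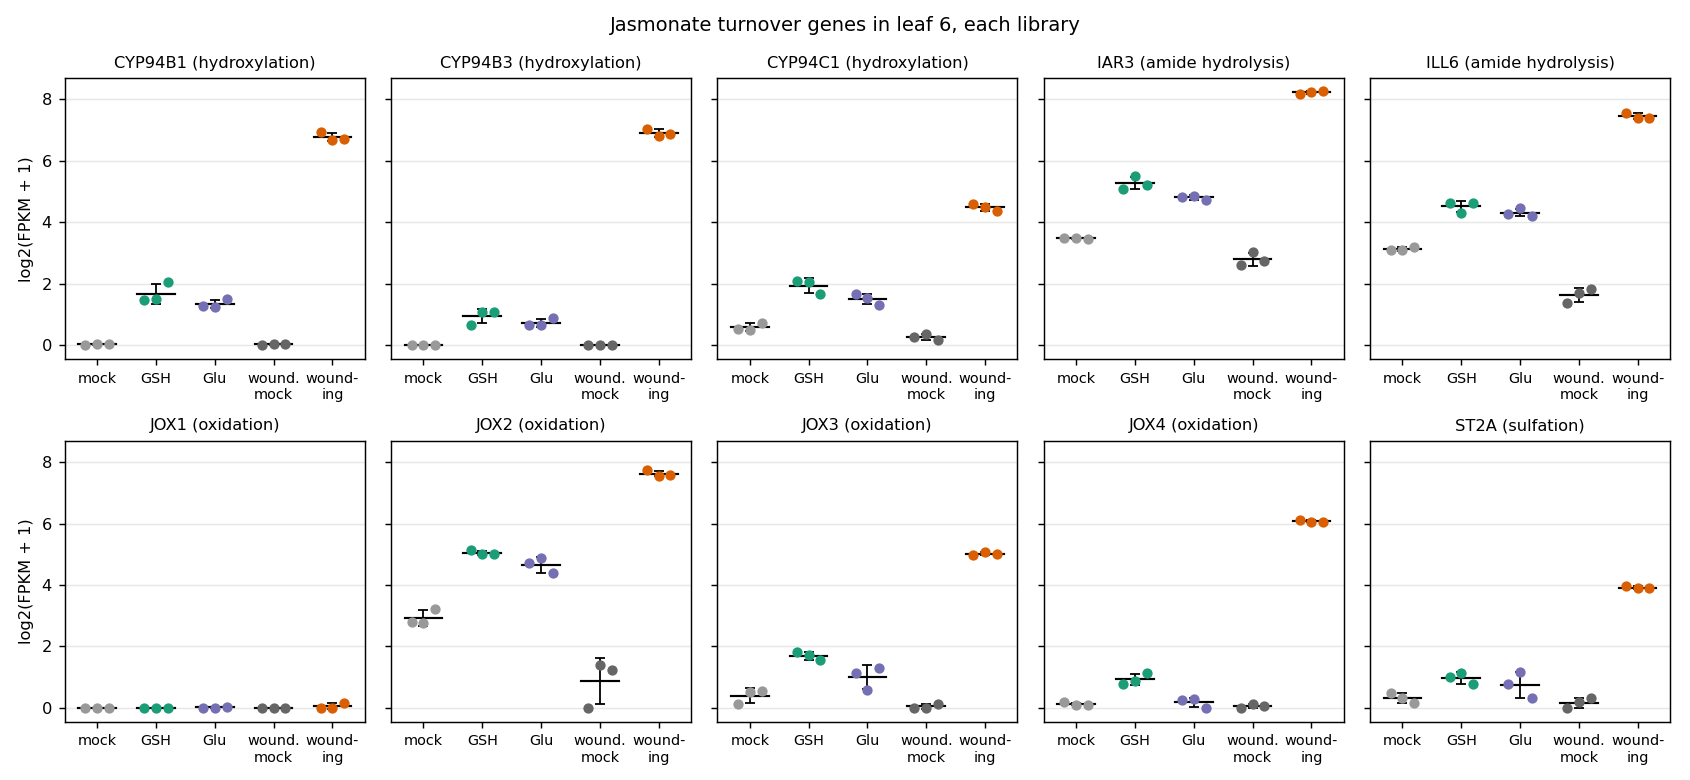
Level of each of the 10 genes, as log2(FPKM + 1), in the 3 libraries of the 5 groups; points are libraries, bars the mean and SD on that scale. The 9 genes other than JOX1 stand far higher in wounding than in any other group, JOX1 stays near 0 in all groups, and wounding mock replicate 1 is at 0 for JOX2.

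The first comparison asks whether GSH on leaf 1 was followed by a change of these genes in the systemic leaf 6. After GSH, 6 of the 10 members rose: JOX2, IAR3, CYP94B1, ILL6, CYP94C1 and JOX3 (limma on log2(FPKM + 1), Benjamini-Hochberg adjusted p under 0.05 and a log2 difference above 1). Over all 16878 genes tested, 1.18% rose by this rule and 4.05% were higher by adjusted p alone, which called the same count of 6 members. The other 4 members did not reach the filter of 1 FPKM in 3 libraries, so they were not tested. CYP94B1, CYP94C1 and JOX3 passed it through the GSH libraries alone. They had to be high there to be tested, so the count of 6 is a description.

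JOX2, an oxygenase of JA, was at 6.00, 5.73 and 8.37 FPKM in mock and at 34.0, 31.2 and 31.1 FPKM in GSH, with no overlap. Its log2 difference was 2.12 ± 0.13 (SE; limma adjusted p = 1.01e-04), rank 40 of all genes tested. IAR3, an amidohydrolase that acts on JA-Ile and on auxin conjugates, went from 10.2, 10.1 and 9.96 FPKM in mock to 33.2, 44.4 and 36.5 FPKM in GSH. The 3 GSH libraries of IAR3 spread more than the mock libraries (SD 5.78 against 0.135 FPKM) but lay far above them, at a log2 difference of 1.80 ± 0.11 (limma adjusted p = 1.01e-04). ILL6, the second amidohydrolase, was at 7.47, 7.58 and 8.11 FPKM in mock and 23.9, 18.7 and 23.5 FPKM in GSH, a log2 difference of 1.39 ± 0.11 (limma adjusted p = 3.41e-04).

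The hydroxylases started much lower. CYP94B1, which oxidises the chain end of JA-Ile, was at 0, 0.0214 and 0.0244 FPKM in mock and at 1.75, 1.86 and 3.15 FPKM in GSH. The log2 difference of CYP94B1 was 1.65 ± 0.19 (limma adjusted p = 0.0023), on a scale where adding 1 FPKM understates the change of a gene so close to 0; with 0.1 FPKM added it was 4.31. CYP94C1, which carries the oxidation on to the carboxylic acid, was present before treatment, at 0.449, 0.402 and 0.655 FPKM in mock, and was at 3.22, 3.17 and 2.13 FPKM in GSH. Its groups did not overlap, with a log2 difference of 1.35 ± 0.17 (limma adjusted p = 0.00333). CYP94B3, which acts on the same substrate as CYP94B1, was listed at 0 in all 3 mock libraries and at 0.586, 1.09 and 1.13 FPKM in GSH.

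Among the remaining oxygenases, JOX3 was at 0.0807, 0.439 and 0.445 FPKM in mock and at 2.52, 2.27 and 1.95 FPKM in GSH (log2 difference 1.31 ± 0.17, limma adjusted p = 0.00437). JOX4 was at 0.128, 0.0732 and 0.0633 FPKM in mock and 0.704, 0.836 and 1.17 FPKM in GSH. ST2A, which sulfates hydroxylated JA, was at 0.387, 0.245 and 0.113 FPKM in mock and 1.01, 1.18 and 0.695 FPKM in GSH. The GSH libraries of JOX4 and of ST2A each lay above all mock libraries, but at levels around 1 FPKM. When the filter was applied over all 15 libraries, so that these genes entered the test, the log2 difference was 0.94 for CYP94B3 (limma adjusted p = 0.0255), 0.80 for JOX4 (0.0354) and 0.65 for ST2A (0.0775), none above 1.

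Leaving out any of the 3 GSH libraries lowered the count from 6 to 3, since CYP94B1, CYP94C1 and JOX3 then had too few libraries at 1 FPKM to be tested; IAR3, ILL6 and JOX2 stayed called each time. With the wounding mock libraries as control, the log2 difference was larger for JOX2 (4.18) and ILL6 (2.89) and the count stayed at 6; without wounding mock replicate 1 these were 3.75 and 2.77. No cell type marker or clock gene was called after GSH or Glu, but the 2 guard cell markers summed to 22.3 to 25.2 FPKM in mock, 28.2 to 33.2 in GSH and 30.7 to 35.2 in Glu, with no overlap with mock. Clock genes PRR5 (−0.32), GI (−0.24) and LUX (0.20) did not overlap between GSH and mock either (limma adjusted p = 0.139, 0.183 and 0.231). The same held for PRR7, at 51.0 to 53.9 FPKM in mock and 39.8 to 45.9 in GSH. Of the guard cell markers FAMA differed by 0.41 after GSH (limma adjusted p = 0.166) and 0.53 after Glu (0.0257, under the fold threshold). Single markers of other cell types moved in both directions. ATML1 of the epidermis was at 22.7 to 25.6 FPKM in mock, 28.1 to 29.6 in GSH and 26.1 to 26.4 in Glu. RBCS1A of the mesophyll was at 11077 to 11122 FPKM in mock, 9942 to 10297 in GSH and 8089 to 11073 in Glu. LHCB1.3 of the mesophyll did not overlap between mock (8247 to 9777 FPKM) and Glu (9811 to 10057.5). Of the 4 mesophyll markers, 0 had an unadjusted p under 0.05 in limma after GSH or Glu. The part of these markers and clock genes in the rise of the turnover genes was not tested.

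The comparison of Glu with mock used the same 3 mock libraries, so it is not independent of the one with GSH. After Glu, 4 of the 10 members rose, JOX2, IAR3, CYP94B1 and ILL6, where 1.15% of 16834 genes tested rose; by adjusted p alone 5 of 10 were called, CYP94C1 included, against 7.13% of all genes. CYP94B1 and CYP94C1 passed the filter through the Glu libraries alone, so they had to be high there to be tested, and the counts of 4 and 5 are a description. JOX2 was at 25.2, 28.5 and 19.8 FPKM in Glu, a log2 difference of 1.73 ± 0.16 (limma adjusted p = 3.89e-04). IAR3 was at 27.5, 28.1 and 25.4 FPKM, and ILL6 at 18.5, 20.8 and 17.4 FPKM. Their log2 differences from mock were 1.33 ± 0.08 and 1.19 ± 0.09 (limma adjusted p = 2.65e-05 and 1.28e-04), with no overlap of the groups.

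CYP94B1 was at 1.43, 1.36 and 1.81 FPKM in Glu, against at most 0.0244 in mock, and its log2 difference was 1.32 ± 0.15 (limma adjusted p = 0.00136). CYP94C1 was at 2.15, 1.88 and 1.49 FPKM, all above mock. The log2 difference of CYP94C1 was 0.92 ± 0.15 (limma adjusted p = 0.00807), just short of the fold threshold, which it passed with 0.1 FPKM added (1.70) or with wounding mock as control (1.25). CYP94B3 was at 0.559, 0.579 and 0.824 FPKM in Glu and listed at 0 in mock.

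The other oxygenases and ST2A were less regular after Glu. JOX3 was at 1.2, 0.492 and 1.45 FPKM, of which the lowest was near the highest mock value of 0.445. JOX4 was at 0.192, 0.206 and 0 FPKM and ST2A at 0.692, 1.22 and 0.237 FPKM, and both overlapped mock. With the filter over 15 libraries, the log2 difference was 0.72 for CYP94B3 (limma adjusted p = 0.0201), 0.61 for JOX3 (0.117), 0.05 for JOX4 (0.863) and 0.42 for ST2A (0.264).

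In the direct comparison of GSH with Glu in limma, no member was called among the 7 tested. Over all genes, 0.0295% of 16953 were higher in GSH at the same thresholds. Of the 7 members, 4 had an unadjusted p under 0.05 in limma, as had 1487 of the 16953 genes. Each of the 9 expressed members had the higher mean in GSH. The GSH and Glu libraries did not overlap for IAR3, JOX2, JOX3 and JOX4, and overlapped for the other 5. The share of all genes without overlap was not computed, so this split is a description. The 95% interval of the log2 difference was 0.22 to 0.72 for IAR3, 0.10 to 0.67 for JOX2, 0.23 to 1.15 for JOX3 and 0.05 to 0.80 for CYP94C1, with limma adjusted p between 0.289 and 0.524. It was −0.09 to 0.76 for CYP94B1, −0.06 to 0.47 for ILL6 and −0.30 to 0.75 for ST2A, with limma adjusted p of 0.664, 0.671 and 0.841. JOX4 had the highest ratio of means of the 9 members, 6.82, with 0.904 ± 0.241 FPKM in GSH and 0.133 ± 0.115 in Glu, but was below the filter here. Tested with the filter over 15 libraries, JOX4 differed by 0.75 (limma adjusted p = 0.28).

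**Figure D2:**
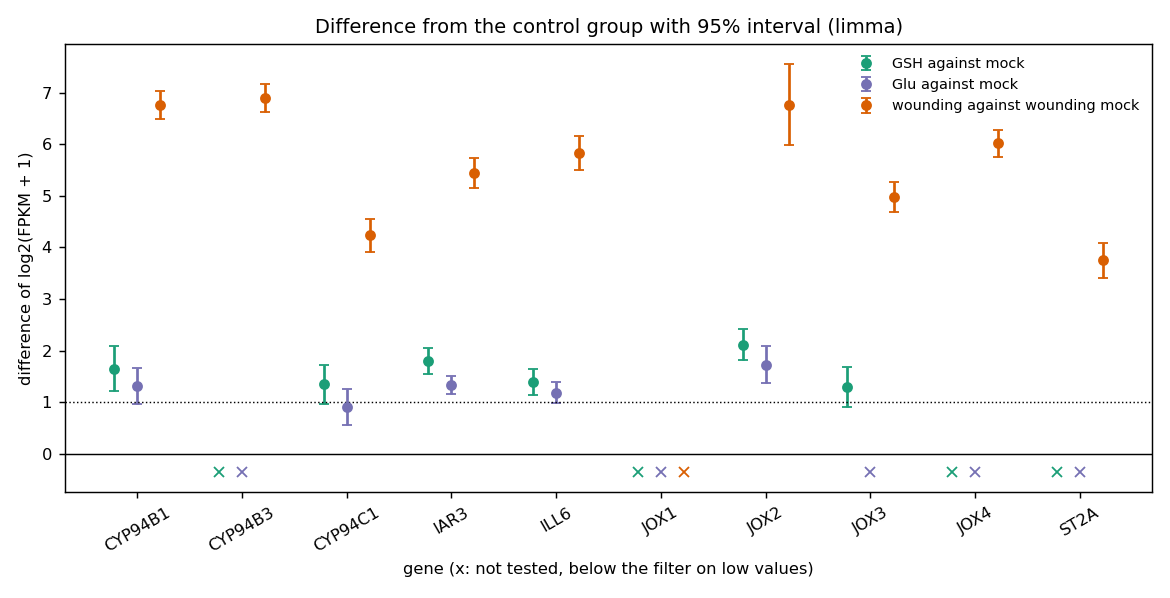
Difference of log2(FPKM + 1) from the control group for each gene, with its 95% interval from limma, for GSH, Glu and wounding; the dotted line marks the threshold of 1 and crosses mark genes below the filter. Wounding differences lie between 3.75 and 6.90, GSH and Glu differences between 0.92 and 2.12.

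The members differed far more between wounding and wounding mock than between GSH or Glu and mock. Of the 10 members, 9 rose (all but JOX1), where 5.28% of 16803 genes tested rose and 2.73% fell. Of the 9, CYP94B1, CYP94B3, CYP94C1, JOX3, JOX4 and ST2A passed the filter through the wounding libraries alone, so they had to be high there to be tested, and the count of 9 is a description. IAR3, ILL6 and JOX2 also reached 1 FPKM in wounding mock libraries. CYP94B3, CYP94B1, JOX2, JOX4 and ILL6 were among the 15 largest differences of all genes tested.

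Both CYP94B hydroxylases went from at or near 0 to among the more abundant members. CYP94B3 was listed at 0 in the 3 wounding mock libraries and was at 131, 110.2 and 116 FPKM in wounding, a difference of 6.90 ± 0.12 in log2(FPKM + 1) that is not a fold change, since the control is listed at 0 (limma adjusted p = 1.26e-07). CYP94B1 was at 0, 0.0236 and 0.0154 FPKM before and at 121, 102 and 104 FPKM after wounding (6.76 ± 0.12, limma adjusted p = 1.34e-07). CYP94C1 was the least raised of the 3, from 0.187, 0.272 and 0.121 FPKM to 23.2, 21.4 and 19.7 FPKM (4.23 ± 0.14, limma adjusted p = 1.13e-06).

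IAR3 reached the highest level of all members. It was at 5.09, 7.13 and 5.69 FPKM in wounding mock and 289, 300.5 and 306 FPKM in wounding, with a log2 difference of 5.43 ± 0.12 (limma adjusted p = 2.68e-07). ILL6 was at 1.58, 2.23 and 2.51 FPKM and then 187, 169 and 168 FPKM, 82.9 times as high on average (5.83 ± 0.14, limma adjusted p = 3.17e-07). The wounded libraries of both genes agreed closely, with an SD of 8.73 FPKM for IAR3 and 10.8 FPKM for ILL6.

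Among the oxygenases, JOX2 was at 0, 1.61 and 1.32 FPKM in wounding mock and at 212, 187 and 192 FPKM in wounding (6.76 ± 0.34, limma adjusted p = 1.01e-05). The value of 0 came from wounding mock replicate 1, and without that library the JOX2 difference was 6.33 ± 0.10. JOX4 was at 0, 0.0802 and 0.0436 FPKM and then 68.4, 65.5 and 65.9 FPKM (6.02 ± 0.11, limma adjusted p = 1.80e-07). JOX3 was at 0, 0 and 0.1 FPKM and then 30.5, 32.6 and 30.9 FPKM (4.97 ± 0.12, limma adjusted p = 4.00e-07). The wounded levels thus ordered JOX2, JOX4 and JOX3, with no overlap between them.

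ST2A was at 0, 0.127 and 0.243 FPKM in wounding mock and 14.5, 13.8 and 13.9 FPKM in wounding (3.75 ± 0.14, limma adjusted p = 3.00e-06). It was the lowest of the 9 expressed members in wounded plants. Without wounding mock replicate 1, all 9 members stayed called, at log2 differences between 3.67 and 6.90 (limma adjusted p at most 1.62e-07). Leaving out a wounding library left 3 members tested and called, IAR3, ILL6 and JOX2, because the other 6 then lacked 3 libraries at 1 FPKM.

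Markers of leaf cell types also moved with wounding. LHCB2.1 of the 4 mesophyll markers fell (log2 difference −2.36), as did both epidermis markers, ATML1 and PDF1 (−1.64 for PDF1), by the same thresholds in limma. ATML1 missed the fold threshold without wounding mock replicate 1 (−0.91), and PDF1 was then at −1.26. SUC2 of companion cells was at 108 to 131 FPKM in wounding mock and 72.8 to 85.4 in wounding, with no overlap (−0.60, limma adjusted p = 0.00827, under the fold threshold). The summed epidermis markers were at 32.5 to 51.3 FPKM in wounding mock (32.5 to 35.9 without replicate 1) and 15.03 to 16.7 FPKM in wounding. Mesophyll markers summed to 23526 to 25976 and 18815 to 19685 FPKM, and the 9 clock genes, none of them called, to 365 to 419 and 338 to 339.9 FPKM. The clock genes differed in both directions under the fold threshold: GI was at 67.7 ± 6.52 FPKM before and 37.3 ± 1.56 after wounding (−0.84, limma adjusted p = 0.00129) and LUX at 31.6 ± 1.96 and 58.6 ± 1.37 (0.87, 6.22e-04), while CCA1 (−0.74, 0.034) and PRR5 (−0.42, 0.033) were lower. Without wounding mock replicate 1, PRR7 was at −0.97 (limma adjusted p = 8.26e-04) and TOC1 at −0.46 (0.00375), both under the fold threshold. With that library they were at −0.73 and −0.24. CCA1 was below the filter without it. The 9 clock genes then summed to 407 to 419 FPKM in wounding mock. The 2 guard cell markers summed to 20.1 to 23.4 FPKM before and 28.4 to 30.5 FPKM after wounding, with FAMA at 0.53 (limma adjusted p = 0.0208). KAT1 was at 0.15, and its groups overlapped (7.43 to 12.2 FPKM before and 9.72 to 11.2 FPKM after wounding). None of these defining markers was at 0, and their part in the rise of the turnover genes was not tested.

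The difference between the GSH effect and the wounding effect was tested itself, as an interaction in 1 fit of the 12 libraries. All members but JOX1 were called, 9 of 10, with the smaller effect after GSH, where 3.9% of 17415 genes were called in that direction. The differences on the log2 scale ran from −2.89 ± 0.21 for CYP94C1 to −5.96 ± 0.19 for CYP94B3 (limma adjusted p at most 6.05e-06). JOX4 (−5.22 ± 0.18) and CYP94B1 (−5.10 ± 0.22) also differed by more than 5, and ST2A (−3.10 ± 0.21) was next to CYP94C1 at the lower end. The median over all genes tested was 0.13 here and −0.01 after median-ratio scaling of the libraries, which changed the share of calls in the higher direction from 43.4% to 32.1% and left the 9 members called. For Glu against wounding, 9 of 10 members were again called with the smaller effect (4.19% of 17403 genes), from −3.32 ± 0.19 for CYP94C1 to −6.18 ± 0.16 for CYP94B3 (limma adjusted p at most 4.53e-06). In the GSH test CYP94B3, JOX4 and ST2A reached 1 FPKM in fewer than 3 GSH libraries, so they needed the wounding libraries to be tested. In the Glu test CYP94B3 and JOX4 passed the filter through the wounding libraries alone, and JOX3 and ST2A also needed those libraries. These members had to be high in wounding to be tested, so the counts of 9 are a description. Both tests share the mock, wounding and wounding mock libraries.

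The members differed in how near their level after the small molecules came to that after wounding. The mean level after GSH was 16.3% of that after wounding for JOX2, 13.3% for CYP94C1, 12.7% for IAR3 and 12.6% for ILL6. It was 7.17% for JOX3, 6.83% for ST2A, 2.07% for CYP94B1, 1.36% for JOX4 and 0.787% for CYP94B3. After Glu, over the 9 members other than JOX1, the same share ran from 0.199% for JOX4 and 0.550% for CYP94B3 to 12.4% for JOX2. The 3 members with the lowest shares after GSH had mean levels under 0.1 FPKM in both mock groups, and no test was made of this order.

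The make-up of the set therefore differed between groups. Hydroxylation genes made up 2.00% ± 0.397 of the summed FPKM of the 10 members in mock, 5.89% ± 0.407 in GSH and 5.32% ± 0.713 in Glu, against 2.22% ± 0.753 in wounding mock and 24.1% ± 1.2 in wounding. Amide hydrolysis genes took 69.5% ± 3.81 in mock, 58.7% ± 1.90 in GSH and 60.2% ± 1.99 in Glu, against 86.8% ± 9.04 in wounding mock and 45.9% ± 1.45 in wounding. Without wounding mock replicate 1 the amide hydrolysis share was 81.6% in each of the other 2 wounding mock libraries. Oxidation genes took 27.5% ± 3.92 in mock, 34.5% ± 2.16 in GSH, 33.5% ± 2.12 in Glu and 28.6% ± 0.258 in wounding. In wounding mock the oxidation share ran from 0% to 14.7%, its low end being the library that stood apart. Sulfation stayed between 0.903% and 1.36% on average in every group.

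Within the hydroxylation route CYP94C1 had the largest mean share in every group but wounding, where CYP94B3 had it. The shares in mock and wounding mock rest on sums of only 0.517 and 0.206 FPKM on average. CYP94C1 made up 97.1% ± 2.6 of the 3 CYP94 genes in mock and 93.6% ± 5.82 in wounding mock, 47.7% ± 12.9 in GSH, 45.7% ± 8.43 in Glu and 8.61% ± 0.486 in wounding. CYP94B1 and CYP94B3 together filled the rest, at 37.0% and 15.3% in GSH and at 43.7% and 47.7% in wounding. IAR3 held 56.7% ± 1.41 of its route in mock, 63.1% ± 6.45 in GSH, 58.9% ± 1.29 in Glu, 74.0% ± 3.98 in wounding mock and 63.1% ± 2.1 in wounding, so it was the larger part of the pair in every group. JOX2 led the oxidation route in mock (94.2% ± 2.43), GSH (91.1% ± 0.243) and Glu (95.1% ± 2.29), and held 66.8% ± 1.31 in wounding, where JOX4 held 22.6% ± 0.507.

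**Figure D3:**
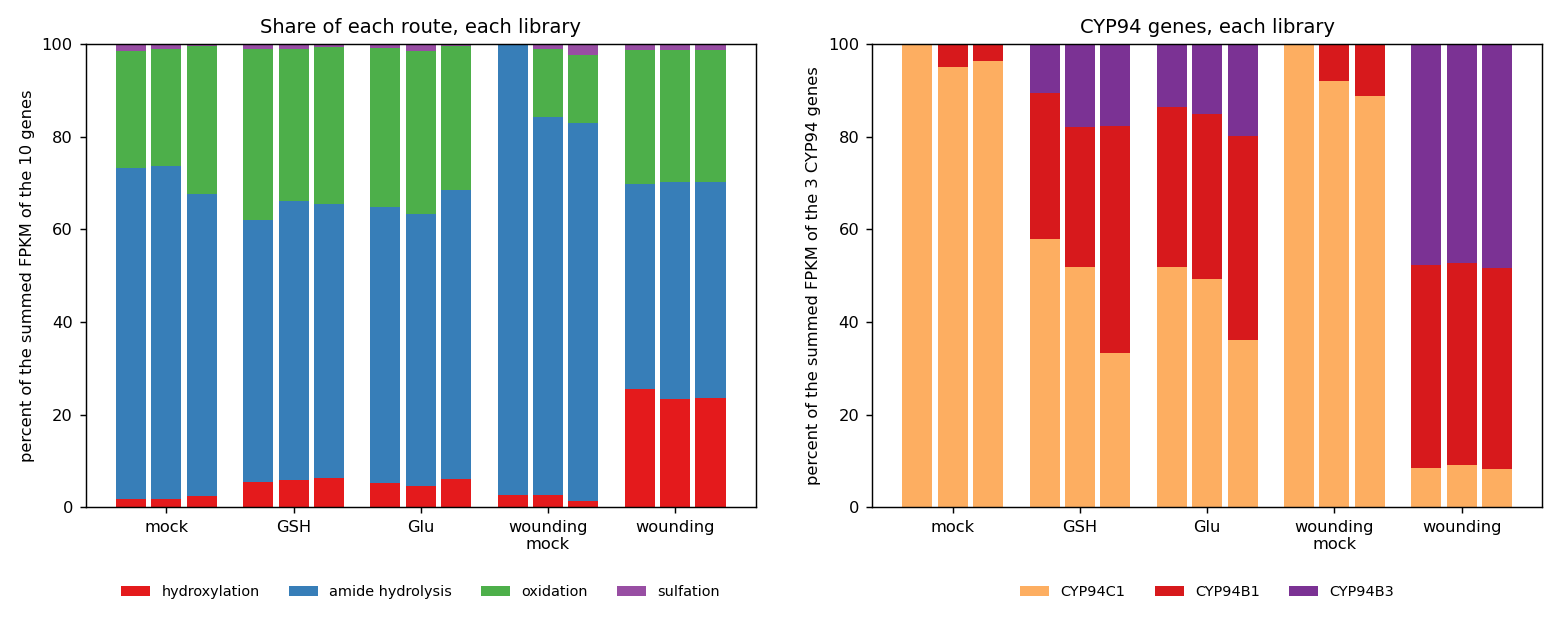
Left, percent of the summed FPKM of the 10 genes taken by each route in each library, 3 bars a group; right, the same for the 3 CYP94 genes. Hydroxylation genes take 23.3% to 25.5% of the sum in wounding and at most 6.32% elsewhere. CYP94C1 takes a smaller share of the 3 CYP94 genes in GSH, Glu and wounding than in both mock groups, where their sum is low.

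Summed FPKM per route was compared over libraries with exact two-sided permutation tests, in which 3 libraries against 3 cannot go below p = 0.1. In 11 of the 12 comparisons the groups did not overlap and p was 0.1 (0.109 after Benjamini-Hochberg adjustment over the 12). The exception was sulfation after Glu (exact p = 0.3). The share of all genes without overlap was not computed, so the count of 11 is a description. The 12 are not independent, since GSH and Glu share the mock libraries, and the sulfation route is ST2A alone. The summed hydroxylation genes were at 0.517 ± 0.141 FPKM in mock and 6.03 ± 0.432 in GSH, a ratio of 11.7, and at 0.206 ± 0.0813 and 249 ± 22.1 FPKM before and after wounding. Amide hydrolysis genes were at 17.8 ± 0.211 and 60.1 ± 3.02 FPKM in mock and GSH, and oxidation genes at 7.11 ± 1.53 and 35.3 ± 1.70 FPKM.

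The 2 control groups also differed for part of the set. ILL6 was higher in mock than in wounding mock (7.72 ± 0.343 against 2.11 ± 0.479 FPKM, log2 difference 1.5 ± 0.16, limma adjusted p = 0.0112) and was the only 1 of 10 members called, where 0.227% of 16739 genes were higher in mock. This call was lost when a mock library was left out (limma adjusted p 0.1 to 0.156) or without the filter on low values (0.0696). JOX2 was at 6.70 ± 1.45 against 0.977 ± 0.858 FPKM (2.06 ± 0.36, limma adjusted p = 0.118), and it was called without wounding mock replicate 1 (1.63 ± 0.17, 0.00859). IAR3 was at 10.1 ± 0.135 against 5.97 ± 1.05 FPKM and was not called (0.68 ± 0.14, limma adjusted p = 0.186), although the groups did not overlap. CYP94C1 did not overlap either, at 0.502 ± 0.135 and 0.193 ± 0.0757 FPKM, but was below the filter. The cause of these differences was not tested.

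Close relatives of the members were also measured. CYP94D2, of the same P450 family, stayed between 16.2 and 18.2 FPKM on average in all 5 groups and was not called in any comparison, while CYP94D1 was listed at 0 in every library and CYP94B2 had no group mean above 0.00654 FPKM. Of the 5 other ILR1-like amidohydrolases, 4 were tested after GSH and Glu and 0 were called in limma (2 and 1 at an unadjusted p under 0.05), and ILR1 and ILL5 rose after wounding. ILL2 was at 5.39 ± 0.498 FPKM in mock, 7.53 ± 0.761 in GSH and 7.70 ± 1.03 in Glu, with no overlap with mock (log2 difference 0.42, limma adjusted p = 0.0728, and 0.44, 0.0437, under the fold threshold). ILL3 was at 1.15 ± 0.388 FPKM in mock and 2.04 ± 0.131 in GSH, also with no overlap (0.51, limma adjusted p = 0.123). ILL1 did not overlap between these groups either, at 13.5 to 14.0 FPKM in mock and 14.6 to 15.3 in GSH. ILL5 was below the filter after GSH, listed at 0 in the 3 mock libraries and at 0.304 to 0.926 FPKM in GSH. ILR1, known for cleaving auxin conjugates, went from 3.71 ± 0.620 to 9.41 ± 0.583 FPKM (log2 difference 1.15 ± 0.14, limma adjusted p = 0.00125). ILL5, the tandem neighbour of IAR3, went from 0.0469 ± 0.0813 to 1.83 ± 0.562 FPKM (1.42 ± 0.21, limma adjusted p = 0.00271); reads shared with IAR3 could give part of so low a level, which was not tested. ST2B, the tandem neighbour of ST2A, was at 1.71 ± 0.377 and 2.99 ± 0.0928 FPKM before and after wounding (0.56 ± 0.16, limma adjusted p = 0.0459, under the fold threshold), and reads of this pair may be split between the copies. After GSH, ST2B was at 1.23 to 2.17 FPKM against 0.88 to 1.09 in mock, with no overlap (log2 difference 0.47, not called).

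**Figure D4:**
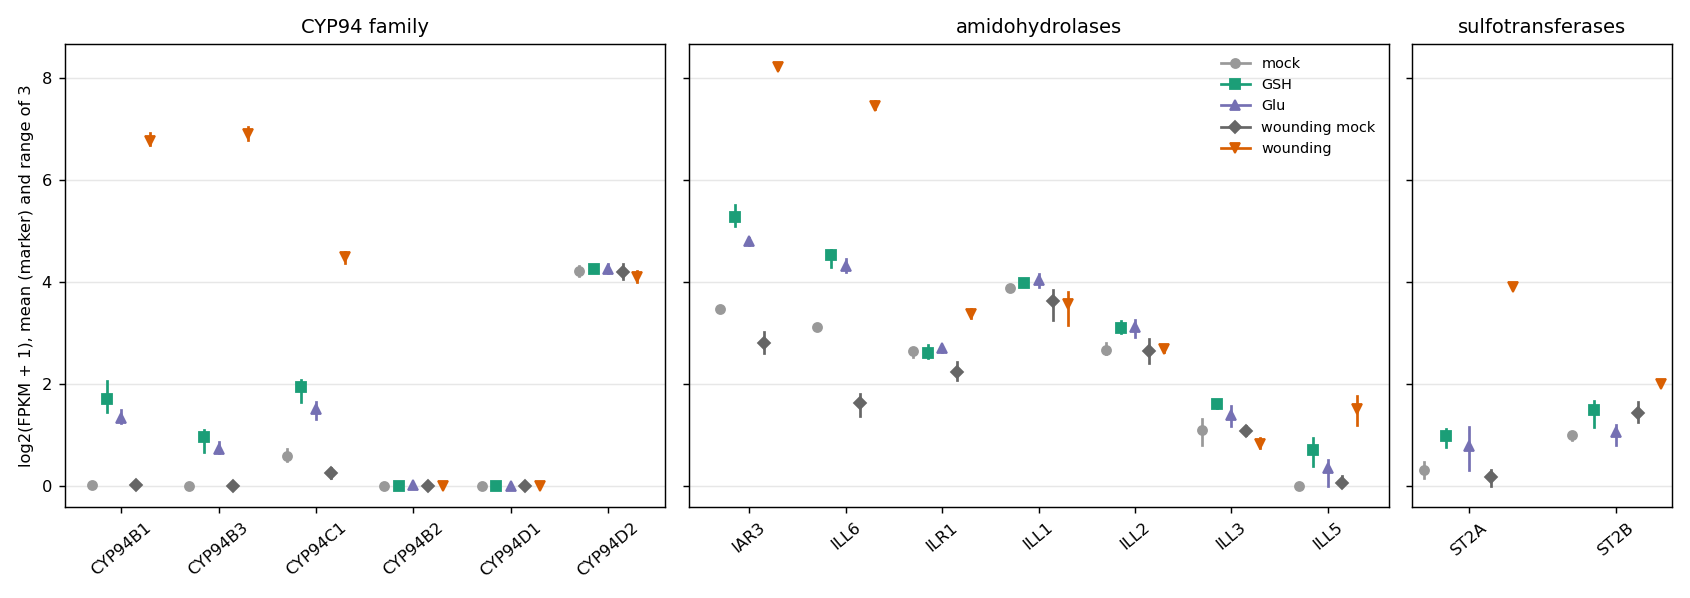
Mean (marker) and range (line) over 3 libraries of log2(FPKM + 1) for members and their relatives in the CYP94, ILR1-like amidohydrolase and ST2 families, in the 5 groups. Wounding stands 5.43 to 6.90 above wounding mock for CYP94B1, CYP94B3, IAR3 and ILL6, 4.23 for CYP94C1 and 3.75 for ST2A, against 1.15 for ILR1 and −0.10 for CYP94D2.

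Of 6 other genes that modify jasmonates, 3 rose after wounding (JAR1, JMT and UGT76E12), and 0 of the 3 tested after GSH and 0 of the 2 tested after Glu were called in limma (1 each at an unadjusted p under 0.05). JAR1, the enzyme that makes JA-Ile, was at 42.0, 30.6 and 32.5 FPKM in wounding mock and 254, 240.1 and 237 FPKM in wounding (log2 difference 2.77 ± 0.13, limma adjusted p = 7.53e-06), against −0.17 ± 0.08 after GSH (0.278) and 0.04 ± 0.08 after Glu (0.82). JMT, which makes the methyl ester of JA, rose from 0.252 ± 0.273 to 25.9 ± 3.80 FPKM after wounding (4.44 ± 0.20, limma adjusted p = 5.72e-06) and was at 0.628 ± 0.181 in mock and 1.54 ± 0.281 in GSH (0.64 ± 0.16, limma adjusted p = 0.0607). The glucosyltransferase gene UGT76E12 was listed at 0 in wounding mock and at 6.40 ± 1.38 FPKM in wounding. Without wounding mock replicate 1, ILR1, ILL5, JAR1, JMT and UGT76E12 stayed called after wounding, at 1.13, 1.39, 2.91, 4.29 and 2.87. Of the 14 genes of JA synthesis, 6 rose after GSH, 5 after Glu and 12 after wounding, and of the 13 JAZ repressors, which hold jasmonate responses down, 8, 6 and 10. The median log2 difference was 0.98 for the 13 synthesis genes tested after GSH and 3.99 after wounding, against 1.52 for the 6 members tested after GSH and 5.83 for the 9 tested after wounding; over all genes tested it was 0.04 and −0.07. Members that passed the filter only through the treated group had to differ, so these medians describe the genes tested and not all members.

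The gene most like each member was sought over the 5 group means of log2(FPKM + 1), each gene centred on its own mean, by the root-mean-square difference. For IAR3 it was LOX4, a lipoxygenase of JA synthesis, at 0.044 on this log2 scale, and for ST2A it was SOT16, a sulfotransferase of glucosinolate synthesis, at 0.059. CYP94C1 was nearest to AT1G80120 (0.065), ILL6 to GolS1 (0.11), JOX3 to AT3G22275, which is JAZ13 (0.13) and JOX2 to CSLA01 (0.24). CYP94B1 and CYP94B3 were nearest to each other (0.35), and JOX4 was nearest to CYP94B3 (0.38). With 5 points that share the same wounding step, many genes can lie close, and the likeness is a description.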

How the data were processed

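Total RNA of leaf 6 was sequenced with a library kit that does not mark strand. Per the submitters' processing notes and the study's methods, the authors trimmed reads with cutadapt and Trimmomatic, aligned them to TAIR10 with HISAT2 and derived FPKM with StringTie. They deposited 1 table of FPKM for 15 libraries. Its name calls the values counts, but they are not whole numbers, so the authors' count test (DESeq2 1.16.1) was not repeated. Depth per library is unknown, and so is the precision of low values.

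Groups came from the labels. Tests used R 4.3.3 and limma 3.58.1 with a variance trend on log2(FPKM + 1), without further scaling, on genes that reached 1 FPKM in 3 libraries of the groups compared; p values were adjusted over all genes tested in each of 7 comparisons, and the method was tested on simulated data. All 10 members are named by rule, with the gene list they belong to. Members and lists were chosen with earlier results of these data known. Sequences and positions were read from the TAIR10.1 genome and RefSeq annotation by gene ID, since the table holds no coordinates; the JOX names are not in that annotation, which names AT3G55970 JRG21. Alternatives changed the filter, the pseudocount (0.1), the scaling, the libraries in the fit, the control group, the threshold and the pairing. The libraries were treated as unpaired (see the closing section), and protein sequences were not used here.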

Additional observations from a re-analysis of the deposited data

Results flagged for a closer look

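The effect of GSH and the effect of wounding on leaf 6, each against its own mock group, differed for all members but JOX1 by the interaction test in limma (9 of 9 tested). CYP94B3, JOX4 and ST2A needed the wounding libraries to pass the filter, so this count is a description. GSH effect minus wounding effect, on the log2(FPKM + 1) scale, was −5.10 for CYP94B1, −5.96 for CYP94B3 and −2.89 for CYP94C1. It was −3.63 for IAR3 and −4.44 for ILL6, the amidohydrolases. It was −4.64 for JOX2, −3.66 for JOX3, −5.22 for JOX4 and −3.10 for ST2A.

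The Glu effect minus the wounding effect was −5.44 for CYP94B1, −6.18 for CYP94B3 and −3.32 for CYP94C1. It was −4.10 for IAR3, −4.64 for ILL6, −5.03 for JOX2, −4.35 for JOX3, −5.97 for JOX4 and −3.33 for ST2A. Both sets of differences use the same mock and wounding libraries, and the 2 experiments had separate control groups that themselves differed for ILL6. JOX2 was also higher in mock than in wounding mock (6.70 against 0.977 FPKM) and was called there without wounding mock replicate 1. IAR3 and CYP94C1 were not called between the control groups but did not overlap. Without wounding mock replicate 1 all 9 members stayed called in both tests, and the JOX2 differences were −4.21 for GSH and −4.60 for Glu.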

How the results depend on the processing

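No result changed direction under any alternative run. The number of members called was 6 for GSH under the other filters, pseudocount, scaling, fit, control group and threshold, 4 or 5 for Glu, 9 for wounding, 0 for GSH against Glu, and 9 for each difference of effects. With the main filter some members were tested only because the treated libraries were high, so the counts for GSH, Glu, wounding and the differences of effects are a description. Leaving out 1 library in turn gave 3 to 6 members for GSH, 3 to 4 for Glu, 3 to 9 for wounding, 0 for GSH against Glu, 9 for the GSH and 7 to 9 for the Glu difference of effects, where the lower counts of GSH, Glu and wounding came from members below the filter once a library was gone. For mock against wounding mock the count of 1 became 0 without the filter on low values, 2 with all 15 libraries in 1 fit, and 0 to 2 with 1 library left out. Median-ratio scaling moved the difference of summed FPKM between GSH and mock from 5.51 to 5.17 FPKM (hydroxylation), 42.3 to 39.1 (amide hydrolysis) and 28.2 to 26.3 (oxidation), and that after wounding from 249, 465, 294 and 13.9 to 269, 503, 318 and 15.1 in the order of the 4 routes. The libraries were treated as unpaired: correlations of same-numbered deviations ran from −0.152 to 0.195 and not every pair was above 0.1. For wounding against wounding mock, same-numbered replicates 1 and 2 gave 0.178 and 0.195, and the crossed pairs of these replicates gave −0.184 and −0.188. Such correlations cannot show that pairing was absent. With the replicate number as a block, 6, 4, 9, 0 and 1 members were called in the 5 comparisons of groups and 9 in each difference of effects, so no call changed. Leaving out wounding mock replicate 1 where it served as control for GSH and Glu, a choice made after seeing the data, gave 6 and 5 members. FPKM without depth limits what can be said of members below 1 FPKM.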
